A study of Mus musculus with 6 samples.

Results

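Here 5C, the full cocktail of 5 compounds, was compared with its solvent DMSO across all genes in cultured damaged hepatocytes on day 16. The comparison used 4 of the 6 libraries of the series, 2 labelled 5C and 2 labelled DMSO, and covered the 19135 of 52323 genes in the deposited count table that passed a filter on low counts. The cells came from livers of mice injured with CCl4, which damages hepatocytes and scars the liver. All animals carried Rosa-LSL-tdTomato, a red reporter that Cre recombinase switches on, and had received AAV-TBG-Cre, a virus that drives Cre from a liver-specific promoter, so the injury, the reporter and the virus were shared by every group. After isolation the cells were kept for 16 days in serum-free hepatocyte medium. The 5C medium held 5 µM salidroside (a plant glucoside), 50 µM of the protein kinase D inhibitor CID755673, 2 µM forskolin (an activator of adenylate cyclase), 2 µM GSK429286A (an inhibitor of the kinase ROCK) and 5 µM ETC-1002 (bempedoic acid, an inhibitor of ATP citrate lyase). The DMSO medium held none of these. The 3C libraries, which lacked salidroside and forskolin, share the fit and serve as a further reference. The cells were not purified by the reporter for these libraries as far as the labels say, and the labels did not state whether the 2 libraries of a group came from separate animals, so p-values measure the spread between these libraries, which may be technical.

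Hepatocytes make most plasma proteins, clear ammonia as urea, break down amino acids, keep blood glucose steady, secrete bile and modify drugs through cytochrome P450 and conjugating enzymes. In culture they are known to lose much of this program and to flatten and spread. A collagenase digest of an injured liver can also carry macrophages, endothelial cells, stellate cells and the mesothelium of the liver capsule, whose RNA is read together with that of the hepatocytes.

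The libraries held 65916573 to 69245895 estimated counts, and the 20 most abundant genes took 8.36% to 9.63% of them. Levels are given as CPM, the estimated counts of a gene scaled to the same total in every library, which are not divided by gene length and so are compared between libraries and not between genes. The floor, under which a level was not told from 0, was set at 12 estimated counts and corresponded to 0.173 to 0.182 CPM. Defining hepatocyte markers were read in every library: Alb, the gene of albumin, was at 1357 and 1182 CPM in DMSO and 6766 and 10400.0 CPM in 5C. Cyp7a1 and Cyp8b1, which mark differentiated bile acid synthesis, did not pass the filter on low counts. Of the lists for other cells, the lymphocyte and neutrophil markers summed to 7.36 to 9.1 CPM in DMSO and 1.91 to 2.51 CPM in 5C, with Cd3e at 0 in every library. The 20 macrophage markers summed to 14310 and 15430 CPM in DMSO and to 3400 and 3313 CPM in 5C, without overlap. In bulk RNA, fewer cells of a type and less RNA per cell cannot be told apart.

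With 5C, 2242 genes were called (11.7% of those tested) at an adjusted p under 0.05 and a log2 fold change above 1 in size. Of these, 1397 were higher (7.3%) and 845 lower (4.42%). The median log2 fold change over all tested genes was 0.004133. Scaling between the libraries sets most genes near 0, so this median cannot show a shift shared by all genes. Among genes called higher, 696 changed by a log2 value of 1 to 2, 438 by 2 to 4 and 263 by more than 4, and 201 did not exceed the floor in either DMSO library. Among genes called lower, 541, 240 and 64 fell into these classes, and 72 did not exceed it in either 5C library. The genes called higher took 2.79% and 2.5% of the counts in DMSO and 9.502% and 10.46% in 5C, and those called lower took 9.676% and 10.38% in DMSO and 3.061% and 3.029% in 5C. These shares describe the chosen genes and are no test. All 2242 called genes, and 12076 of the 19135 tested, had no overlap between the 5C and DMSO libraries. Lack of overlap in a called gene thus adds nothing to its call. By gene type, 8.68% of 15182 protein-coding genes were called higher and 4.89% lower, whereas of 1760 long non-coding RNA genes 53 were called higher and 51 lower.

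**Figure D1:**
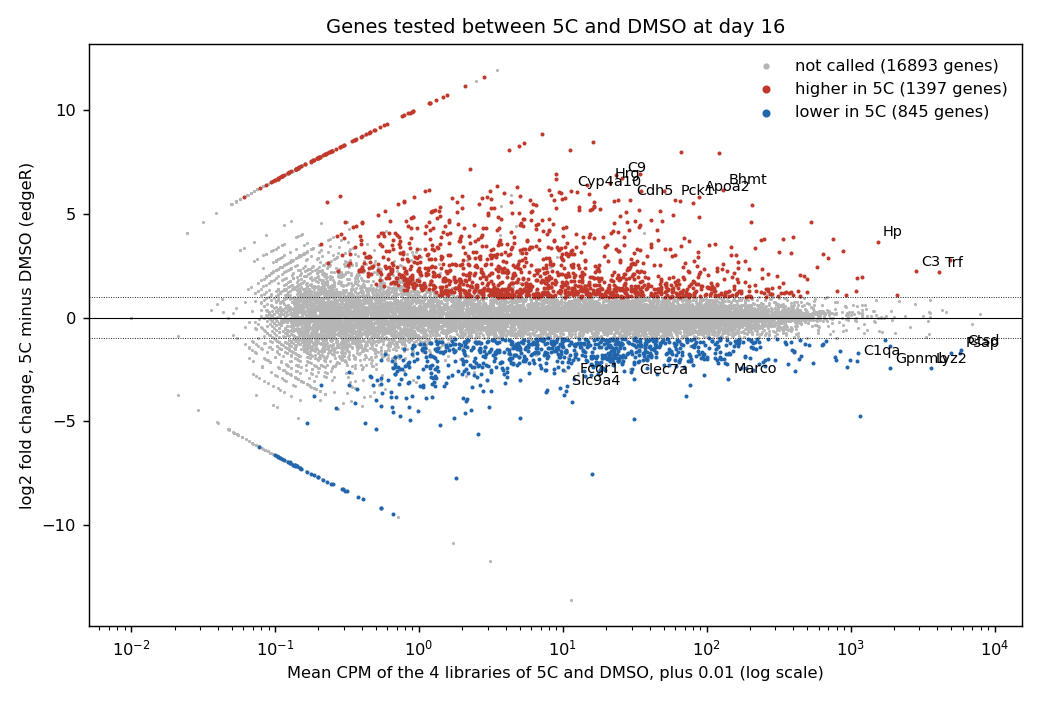
Log2 fold change between 5C and DMSO (y axis) against the mean CPM of the 4 libraries plus 0.01 (x axis, log scale), 1 point per tested gene, red for the 1397 called higher, blue for the 845 called lower and grey for the rest, with dotted lines at a log2 change of 1 in either direction. Genes of plasma proteins lie at the upper right, lysosomal and macrophage genes at the lower right, and the straight outer edges are genes with no count in 1 of the groups.

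Promoter sequence was examined because the called genes included hepatocyte and macrophage genes whose promoters are known to carry sites of cell type factors. RefSeq promoter windows of 300 bases on GRCm38.p6, 250 before and 50 after the start, were at hand for 12849 of the tested genes, among them 995 called higher and 602 called lower. Some genes have several windows. The next 4 stretches of these windows, 5′ to 3′, are from genes called higher and hold GTTAATNAT, the letters searched for HNF1, with the match on either strand in capitals.
Ugt1a1, chr1:88211880-88211958, + strand: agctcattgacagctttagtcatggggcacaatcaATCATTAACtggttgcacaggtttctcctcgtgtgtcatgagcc
Pzp, chr6:128526879-128526957, - strand: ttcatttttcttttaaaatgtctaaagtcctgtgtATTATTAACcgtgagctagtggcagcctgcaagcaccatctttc
Cfhr2, chr1:139858766-139858844, - strand: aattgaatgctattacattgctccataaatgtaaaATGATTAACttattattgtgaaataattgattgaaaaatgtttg
G6pc, chr11:101367466-101367538, + strand: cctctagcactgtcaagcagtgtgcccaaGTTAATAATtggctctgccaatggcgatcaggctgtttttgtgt
A further pair of stretches from genes called higher holds CAAAGTCCA, the letters searched for HNF4, in capitals.
Cyp3a11, chr5:145879920-145879998, - strand: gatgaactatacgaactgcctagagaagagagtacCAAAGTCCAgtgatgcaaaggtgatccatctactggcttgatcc
Cyp2c70, chr19:40187307-40187385, - strand: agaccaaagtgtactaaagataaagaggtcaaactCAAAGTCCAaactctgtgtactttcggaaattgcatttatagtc
The last 4 stretches are from genes called lower and hold GAGGAAGT, the letters searched for PU.1, the myeloid factor that Spi1 encodes, in capitals.
Pf4, chr5:90772390-90772434, + strand: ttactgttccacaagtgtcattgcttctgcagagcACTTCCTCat
Havcr2, chr11:46454888-46454930, + strand: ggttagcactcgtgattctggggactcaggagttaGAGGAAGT
Fcgr4, chr1:171018867-171018925, + strand: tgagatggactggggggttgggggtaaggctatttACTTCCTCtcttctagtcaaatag
Cd300ld, chr11:114989987-114990064, - strand: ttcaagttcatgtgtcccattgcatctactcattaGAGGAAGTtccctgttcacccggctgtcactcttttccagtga

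These genes were at the following levels. Ugt1a1, which conjugates bilirubin, was at 1.89 and 1.65 CPM in DMSO and 24.3 and 27.5 CPM in 5C. Pzp, a plasma protease inhibitor, was at 49 and 45.4 CPM in DMSO and 523 and 745 CPM in 5C. G6pc, the catalytic subunit of glucose-6-phosphatase, was at 2.43 and 2 CPM in DMSO and 18 and 23.9 CPM in 5C. The 5C libraries were higher in each of these genes with no overlap, and log2 fold changes were 3.89, 3.77 and 3.26. Havcr2, the phagocyte receptor TIM-3, was at 26.7 and 35.3 CPM in DMSO and 4.88 and 6.64 CPM in 5C. Fcgr4, an activating receptor for immunoglobulin G, was at 110.2 and 124 CPM in DMSO and 23.9 and 21.1 CPM in 5C. Here the DMSO libraries were the higher ones, with log2 fold changes of -2.41 and -2.36. Ugt1a1 shares 71.3% of its transcript, as 50-base words, with other genes, so its value is uncertain.

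The HNF1 letters were found in 2.15% of 1256 windows of genes called higher, 0.396% of 757 windows of genes called lower and 0.539% of all 16323 windows of tested genes. For the HNF4 letters the shares were 1.35%, 0.661% and 0.484%, which are 17, 5 and 79 windows. In genes called higher, the HNF4 matches before the start lay in 10 genes, among them the family members Cyp2c67, Cyp2c68 and Cyp2c70. The PU.1 letters were found in 1.19% of the windows of genes called higher, 9.25% of those of genes called lower and 3.12% of all tested. In genes called lower, the PU.1 matches before the start lay in 49 genes, among them Cd300ld, Cd300ld3, Cd300ld4 and Cd300ld5. The part of such related genes in the shares was not tested. GAAANNGAA, the letters searched for interferon response elements, were in 7.32%, 13.2% and 7.43%, and TGANTCA, for AP-1, in 8.44%, 11.2% and 5.89%. The cAMP response element TGACGTCA was in 1.19% of the windows of genes called higher and in 2.68% of all tested. CCGGAAGT, for ETS factors, was in 0.876% and 1.85% of the windows of genes called higher and lower and in 6.71% of all tested. The PU.1 and ETS letters share the core GGAAGT but differ in the bases before it, so the same core cannot match both. Of the other letters searched, TTGCGCAA (C/EBP) was in 0.239%, 0.264% and 0.276%, GGGANTTCC (NF-kB) in 0.955%, 1.59% and 2.13%, and CATTCC (TEAD) in 15.8%, 13.1% and 12.8% of the windows of genes called higher, called lower and tested. Base composition differed beside these shares: the windows held 56.9% G and C in genes called higher, 53.9% in genes called lower and 59.5% over all tested, with 12.9, 10.4 and 18.9 CG dinucleotides per window, and its part in the shares was not tested. A match is a description of letters and no evidence of a bound site.

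**Figure D2:**
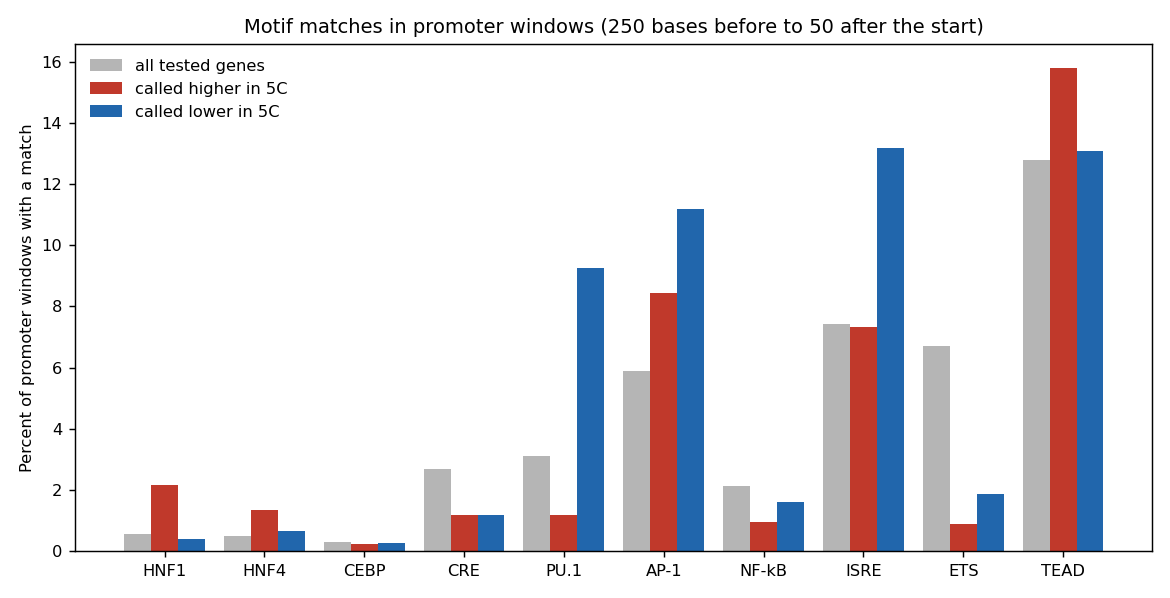
Percent of promoter windows with at least 1 match (y axis) for each of the 10 sets of letters searched (x axis), in all tested genes (grey), genes called higher (red) and genes called lower (blue) in 5C. The blue bar of PU.1 stands at 9.25% beside a grey bar of 3.12%, and the HNF1 red bar at 2.15% beside 0.539%.

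Of the lists of liver functions, those of plasma proteins had the largest median changes. Of 21 lipoprotein genes 17 were called higher, of 21 coagulation genes 18, of 20 complement genes 16 and of 22 acute phase genes 19, against 7.3% of all genes tested. Their median log2 fold changes were 3.33, 2.67, 2.14 and 3.900. The only member of these lists called lower was F7, coagulation factor VII, at 56 and 54.5 CPM in DMSO and 11.8 and 13.5 CPM in 5C (log2 fold change -2.11, SE 0.11, adjusted p 1.54e-06). Over fits that each left out 1 library of 5C or DMSO, the numbers called higher in these lists were 17 to 18, 18, 15 to 16 and 16 to 19.

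Apoa2 (chromosome 1, 171049125 to 171053948, GRCm39), a structural protein of high-density lipoprotein, was at 3.68 and 2.53 CPM in DMSO and 150.4 and 197 CPM in 5C. The libraries of the groups lay far apart, with a log2 fold change of 5.83 (SE 0.23, adjusted p 8.29e-06). Apoa5 (chromosome 9, 46179931 to 46183217), which promotes clearance of plasma triglyceride, was at 0.849 and 1.21 CPM in DMSO and 62.8 and 75.5 CPM in 5C (log2 fold change 6.09, SE 0.19, adjusted p 2.10e-07). Hrg (chromosome 16, 22769822 to 22780406), histidine-rich glycoprotein of plasma, was at 0.521 and 0.425 CPM in DMSO and 37.4 and 46 CPM in 5C (log2 fold change 6.48, SE 0.19). C9 (chromosome 15, 6474795 to 6547009) and C8a (chromosome 4, 104672876 to 104733614) encode parts of the complement pore that opens target membranes. C9 was at 0.298 and 0.668 CPM in DMSO and 54.9 and 47.6 CPM in 5C, and C8a at 0.625 and 0.121 CPM in DMSO and 17.4 and 23.1 CPM in 5C. Their log2 fold changes were 6.74 (SE 0.28) and 5.77 (SE 0.59), so the less abundant C8a was also the less precise. Hamp (chromosome 7, 30641766 to 30643990), which encodes the iron hormone hepcidin, was at 0.581 and 0.167 CPM in DMSO and 27.4 and 21.6 CPM in 5C (log2 fold change 6.04, SE 0.43, adjusted p 4.79e-05). Among acute phase genes, Saa4 was called at 5.66, a call that was lost without either 5C library (adjusted p 0.08728 and 0.08616) or either 3C library (0.08062 and 0.07706). Mug2 and Mup20, a protease inhibitor and a urinary protein, rose by 5.69 and 6.09, but share 50.6% and 49.6% of their 50-base words with other genes, so their reads are uncertain.

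The same lists held most of the largest gains on the CPM scale, but not Trf, Ahsg, Cp and Bgn. Trf (chromosome 9, 103081200 to 103107814), which encodes the iron carrier transferrin, was at 1521 and 1464 CPM in DMSO and 6163 and 7359.8 CPM in 5C. C3 (chromosome 17, 57510964 to 57535155), the central complement component, was at 1073 and 924 CPM in DMSO and 4598 and 4708 CPM in 5C. Hp (chromosome 8, 110301759 to 110305804), haptoglobin, was at 243 and 214 CPM in DMSO and 2862 and 2825 CPM in 5C. In all of these the lowest 5C library was above the highest DMSO library by a wide margin, and the log2 fold changes were 2.200 (SE 0.102), 2.24 (SE 0.08) and 3.66 (SE 0.08). Ahsg (fetuin A) went from 470.1 and 510.5 to 1634 and 2142 CPM, Cp (ceruloplasmin, a copper carrier) from 469 and 455 to 1686 and 1778 CPM and Hpx (hemopexin, which binds heme) from 169 and 170.2 to 1266 and 1159 CPM. Apoa1, the main protein of high-density lipoprotein, rose by 3.81 and Fga, a fibrinogen chain, by 3.09 on the log2 scale. Lcn2, which binds bacterial iron carriers and is an acute phase gene, rose by 3.205. Bgn, which encodes the matrix proteoglycan biglycan, was the exception in kind among the gains, at 1448 and 1289 CPM in DMSO and 2662 and 3005 CPM in 5C (log2 fold change 1.07). Its call was lost without 5C replicate 2, when the log2 fold change was 0.96.

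**Figure D3:**
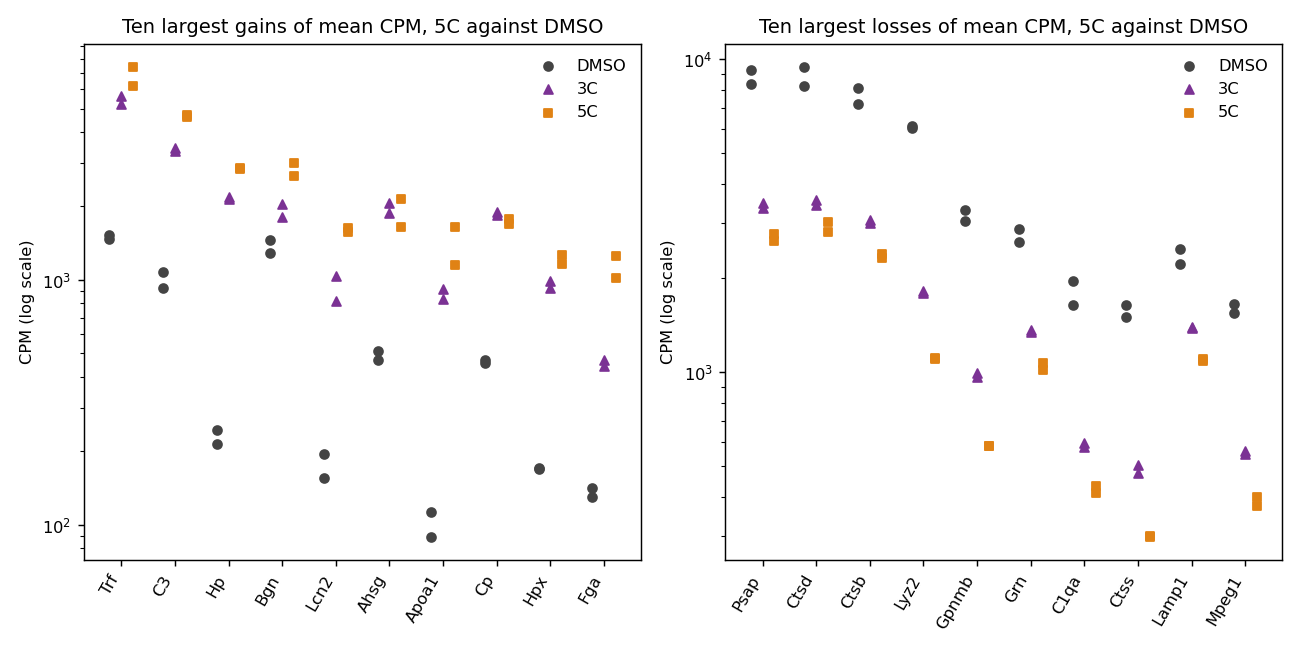
CPM (y axis, log scale) of the 10 genes with the largest gain (left) and the 10 with the largest loss (right) of mean CPM between DMSO and 5C, leaving out the study's own genes, with 1 point for each of the 2 libraries of DMSO (circles), 3C (triangles) and 5C (squares). In every gene the 5C and DMSO points do not overlap, as in all called genes, and the 3C points lie between them in most genes.

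Enzymes of amino acid breakdown rose together. Of 35 genes in the list 27 were called higher, with a median log2 fold change of 2.02, against 7.3% of all tested genes called higher. Bhmt (chromosome 13, 93753183 to 93774469), which remethylates homocysteine with betaine, was at 4.05 and 3.11 CPM in DMSO and 212 and 296 CPM in 5C (log2 fold change 6.17, SE 0.404, adjusted p 0.000666). Part of this value is uncertain, since 11.8% of its 50-base words occur in other genes. Uroc1 (chromosome 6, 90310266 to 90341740), an enzyme of histidine breakdown, was at 0.655 and 0.319 CPM in DMSO and 31.5 and 28.1 CPM in 5C (log2 fold change 5.95, SE 0.28). Hal, which acts before it in the same route, was at 10.2 and 8.68 CPM in DMSO and 7.02 and 10.8 CPM in 5C and was not called (adjusted p 0.874). Tat, tyrosine aminotransferase, rose by 1.48 and Hgd, a later enzyme of tyrosine breakdown, by 4.46 on the log2 scale.

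The urea cycle list was mixed. Of 10 genes, 6 were called higher and 1 lower, against 7.3% and 4.42% of all genes. Cps1, the mitochondrial entry enzyme, was at 23.1 and 12.8 CPM in DMSO and 174 and 245 CPM in 5C (log2 fold change 3.57, SE 0.36, adjusted p 0.00298). Otc, which makes citrulline, was at or under the floor in DMSO and at 2.64 and 2.77 CPM in 5C, at least 14.99-fold higher. Ass1, which joins citrulline and aspartate, went from 24.4 and 32.1 to 100.4 and 115 CPM, with 48.3% of its words shared with other genes. Arg1, which releases urea and is also expressed in macrophages, was at 426 and 493 CPM in DMSO and 248 and 257 CPM in 5C, with a log2 fold change of -0.85 that did not reach the limit for a call. Glul, glutamine synthetase, was called lower, at 491 and 510.2 CPM in DMSO and 198 and 213 CPM in 5C, though 14.2% of its words are shared with other genes.

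Among 17 genes of glucose production and glycogen, 12 were called higher (median 1.76). Pck1 (chromosome 2, 172994744 to 173001066), which controls entry into gluconeogenesis and is a textbook target of cAMP, was at 3.35 and 1.43 CPM in DMSO and 92.9 and 143 CPM in 5C (log2 fold change 5.65, SE 0.49, adjusted p 0.00184). Its libraries did not overlap, as in all called genes, but the replicates within each group also differed. Fbp1, fructose-1,6-bisphosphatase, went from 6.46 and 6.48 to 49.6 and 62.6 CPM and Pcx, pyruvate carboxylase, from 28.9 and 24.2 to 135 and 155 CPM. Gcgr, the glucagon receptor, was at 1.33 and 0.334 CPM in DMSO and 15.6 and 14.9 CPM in 5C. In glycolysis 1 of 17 genes, the lactate carrier Slc16a3, was called higher, at 1.51 (5.88%, against 7.3% of all genes). The list median was 0.29, with 11 log2 fold changes above 0 and 14 genes at an unadjusted p under 0.05.

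Lipid genes rose in part. In fatty acid oxidation 9 of 23 genes were called higher (median 0.77). Cpt1a, the gate of mitochondrial oxidation, had a log2 fold change of 0.31 and was not called. Of 20 genes of fatty acid and triglyceride synthesis 5 were called higher: Scd1 and Fads2, which desaturate fatty acids, Dgat2, which makes triglyceride, and the regulators Thrsp and Mlxipl. Scd1 was at 231 and 207 CPM in DMSO and 779 and 779.5 CPM in 5C. The core enzymes were not called: Fasn had a log2 fold change of -0.16 (adjusted p 0.211) and Acaca, which shares 52.6% of its words with another gene, of -0.19 (adjusted p 0.167). Of 25 cholesterol synthesis genes 2 were called higher, Tm7sf2 and Acat2 (24% of its words shared) (8%, against 7.3% of all genes). Most of the list lay below the fold limit but above 0: 24 of 25 log2 fold changes were positive, with a median of 0.49, 23 genes had an unadjusted p under 0.05, and 19 were called higher with no limit on the fold change. Over all 19135 tested genes, 9626 log2 fold changes were positive, 7287 genes had an unadjusted p under 0.05 and 2984 were called higher without the limit. The list summed to 1784 and 2047 CPM in DMSO and to 2828 and 2727 CPM in 5C, without overlap. Tm7sf2 came under the fold limit without DMSO replicate 1 (log2 fold change 0.87), and without DMSO replicate 2 the list held 5 called higher.

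Bile genes followed with strong rises at low levels. Of 16 bile transport genes 9 were called higher and 1 lower (56.2% and 6.25%, against 7.3% and 4.42% of all genes). Their median log2 fold change was 1.67, while the list as a whole summed to 668.2 and 668.4 CPM in DMSO and to 594 and 554.2 CPM in 5C. Abcc4, a basolateral export pump and an abundant member of the list, was at 314 and 340.4 CPM in DMSO and 139 and 88.7 CPM in 5C (log2 fold change -1.51). Abcc4 lost its call without DMSO replicate 1 (adjusted p 0.0515) or replicate 2 (0.0637). Abcb11, the bile salt export pump of the canalicular membrane, was at 0.893 and 0.258 CPM in DMSO and 16.4 and 14.6 CPM in 5C (log2 fold change 4.77, SE 0.53, adjusted p 0.000598). Slco1a4, an uptake carrier for organic anions, was at 0.328 and 0.273 CPM in DMSO and 18.9 and 19.1 CPM in 5C (log2 fold change 5.99). Slc10a1, the main carrier for bile acid uptake, reached 3.37 and 3.73 CPM in 5C from 0.223 and 0.091 CPM in DMSO. Slc51b, a subunit of a basolateral exporter, was at 0 in DMSO and at 1.07 and 0.823 CPM in 5C, at least 5.25-fold higher than the floor. In bile acid synthesis 5 of 11 genes were called higher, led by Slc27a5 and Baat, which join bile acids to coenzyme A and then to amino acids. Slc27a5 was at 0.253 and 0.41 CPM in DMSO and 17.6 and 16.4 CPM in 5C.

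Several drug-metabolizing families had many genes called higher. Of 67 cytochrome P450 genes 35 were called higher and 2 lower (median log2 fold change 2.11), of 14 UDP-glucuronosyltransferases 7 were called higher, of 12 sulfotransferases 6, and of 11 carboxylesterases 7, against 7.3% of all genes called higher and 4.42% lower. Of 25 glutathione transferases 6 were called higher and 1, Gsta1, lower. Members of these families share sequence, so reads of near-identical copies can be split between them. Cyp2b10, a target of the receptor CAR, was at 3.84 and 2.26 CPM in DMSO and 78.8 and 78.2 CPM in 5C (log2 fold change 4.704, SE 0.24). Cyp4a10, a fatty acid hydroxylase and PPARA target, was at 0.372 and 0.288 CPM in DMSO and 18.3 and 26.8 CPM in 5C, with 37% of its words shared. Cyp2e1, which activates CCl4, was at 0.357 and 0.485 CPM in DMSO and 6.79 and 12.8 CPM in 5C (log2 fold change 4.56, SE 0.43). Ugt1a5, which did not exceed the floor in DMSO (0.164 and 0 CPM) and was at 30.4 and 14.1 CPM in 5C, was at least 123.4-fold higher, but 74.8% of its words occur in other genes of the same locus. Cyp26b1 (chromosome 6, 84548396 to 84570890), which degrades retinoic acid, went the other way, at 31.5 and 29.6 CPM in DMSO and 5.41 and 3.84 CPM in 5C (log2 fold change -2.704, SE 0.17). Of 299 solute carriers 48 were called higher and 20 lower, and of 45 serpins 22 higher and 1 lower. Serpinc1, antithrombin, was at 2.23 and 1.05 CPM in DMSO and 48.5 and 47.7 CPM in 5C.

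**Figure D4:**
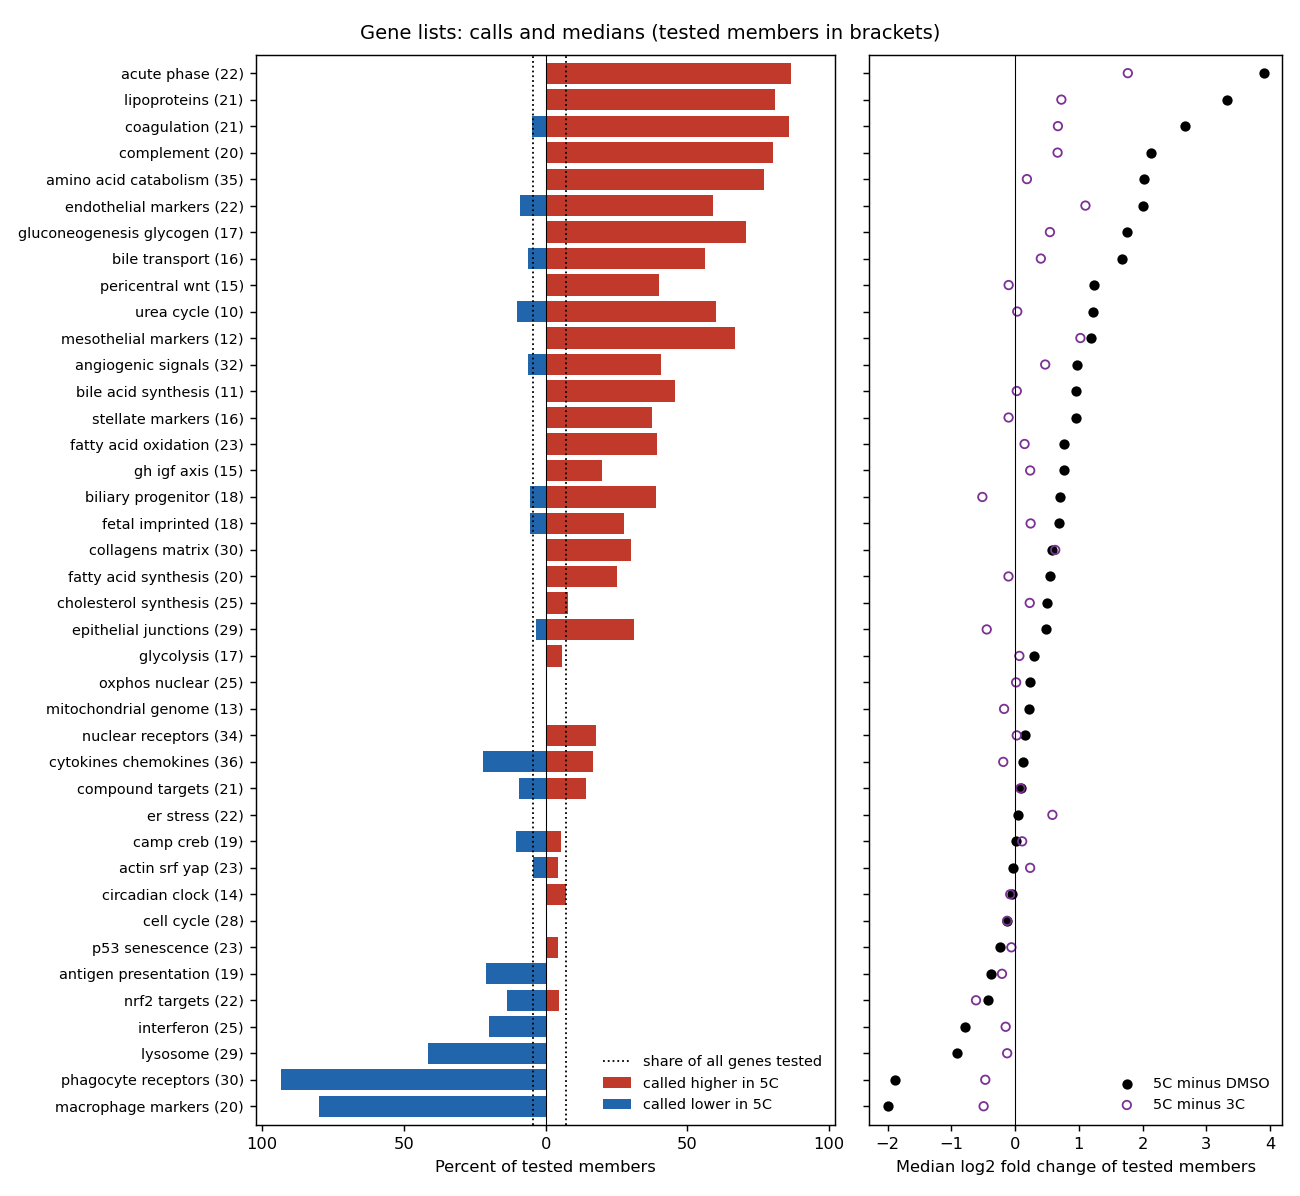
Left, percent of the tested members of each gene list called higher (red, to the right) or lower (blue, to the left) in 5C, with dotted lines at the shares of all tested genes, 7.3% and 4.42%. Right, median log2 fold change of the list between 5C and DMSO (filled points) and between 5C and 3C (open points). Plasma protein lists stand at the top, at medians of 2.14 to 3.900, and phagocyte receptors and macrophage markers at the bottom, at -1.89 and -1.996.

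Of 155 transcription factors tested, 24 were called higher (15.5%, against 7.3% of all genes) and 11 lower (7.1%, against 4.42%). Among 34 nuclear receptors, 6 were called higher (17.6%), and the list median was 0.16. Nr1i2 (PXR), a sensor of foreign compounds, was at 7.79 and 7.74 CPM in DMSO and 27.7 and 30 CPM in 5C, and Nr1i3 (CAR) at 0.536 and 0.592 CPM in DMSO and 2.2 and 3.13 CPM in 5C. Ppara, which controls fatty acid oxidation, went from 5.18 and 4.2 to 13.1 and 16.9 CPM and Nr0b2 (SHP), a repressor of bile acid synthesis, from 1.59 and 2 to 13 and 12.3 CPM. Creb3l3, a membrane-bound liver factor, was at 38.6 and 37.4 CPM in DMSO and 125 and 123 CPM in 5C. The following genes were picked for their known role after their values were seen. Id1, which blocks basic helix-loop-helix factors, was at 33.3 and 30.5 CPM in DMSO and 172 and 149 CPM in 5C (log2 fold change 2.35, SE 0.08, adjusted p 3.03e-07), and Id3 rose by 1.73. Smad6 and Smad7, which restrain signals of the TGF-beta family, went from 26.9 and 21.9 to 101 and 84.3 CPM and from 38.2 and 40.3 to 113 and 107 CPM. Hes1, a Notch target, rose by 1.397.

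Several transcription factors called lower are known from blood cells. Spi1 was at 91.8 and 98.6 CPM in DMSO and 29.3 and 25.1 CPM in 5C (log2 fold change -1.79, SE 0.104). Ikzf1 was at 30.8 and 29.7 CPM in DMSO and 6.63 and 6.93 CPM in 5C and Irf8 at 68.2 and 55.6 CPM in DMSO and 20.1 and 17.7 CPM in 5C. Their log2 fold changes were -2.14 and -1.69. Fosl1, an AP-1 subunit that is also expressed outside blood cells, had a log2 fold change of -1.83 (SE 0.25).

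Junction and biliary lists held a smaller share of called genes than the plasma protein lists. Of 29 epithelial junction genes 9 were called higher and 1 lower (31% and 3.45%, against 7.3% and 4.42% of all genes). Gjb1, the main hepatocyte gap junction protein, was at 8.47 and 9.88 CPM in DMSO and 52.4 and 55.2 CPM in 5C (log2 fold change 2.57, SE 0.11), and Cldn1, of tight junctions, rose by 3.41. Cdh1, E-cadherin, was at 139 and 162 CPM in DMSO and 122 and 132 CPM in 5C and was not called. Of 18 biliary and progenitor genes 7 were called higher and 1 lower, with 4 called higher without 5C replicate 2 or without DMSO replicate 1 and none called lower without 5C replicate 1 or without DMSO replicate 2. Krt7, a keratin of bile ducts, was at 37.6 and 34.1 CPM in DMSO and 146 and 129 CPM in 5C (log2 fold change 1.96, SE 0.08). Krt19 and Sox9, of the same cells, had log2 fold changes of 0.64 and 0.797 and were not called.

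Fetal liver genes also moved both ways, with 5 of 18 called higher and 1 lower (27.8% and 5.56%, against 7.3% and 4.42% of all genes). Mest, an imprinted gene, was at 10.7 and 8.48 CPM in DMSO and 48.9 and 47.8 CPM in 5C (log2 fold change 2.35, SE 0.12), and Gpc3, a fetal liver proteoglycan, at 59.9 and 36.9 CPM in DMSO and 309.9 and 329 CPM in 5C. Afp, fetal albumin, went from 19.5 and 18.9 to 58.3 and 59.5 CPM. H19 and Igf2 had larger changes, 4.96 and 3.87, with replicates far apart (149 and 75.2 CPM for H19 in 5C), and lost their calls without DMSO replicate 1 (adjusted p 0.0731 and 0.124) or replicate 2 (0.0759 and 0.135). Igf2 shares 75.8% of its words with other genes. Hmga2, a chromatin protein of fetal cells, was called lower, at 28.6 and 43.2 CPM in DMSO and 9.41 and 10.1 CPM in 5C. In the list of pericentral and WNT target genes 6 of 15 were called higher, among them Lect2 (2.12) and Nkd1 (1.897).

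Matrix genes rose in part while the fibrillar collagen genes of the list were not called. Of 30 genes 9 were called higher (median 0.58), against 7.3% of all genes. The list summed to 24510 and 21500 CPM in DMSO and to 32040 and 35760 CPM in 5C. Of 37 collagen genes of all types 9 were called higher and 1 lower. Their sum was 13990 and 12350 CPM in DMSO and 18060 and 20240 CPM in 5C. Eln, elastin, was at 3.75 and 2.82 CPM in DMSO and 36.2 and 37.8 CPM in 5C (log2 fold change 3.51, SE 0.16, adjusted p 1.04e-06). Dcn, the proteoglycan decorin, was at 702 and 587 CPM in DMSO and 1605 and 1489 CPM in 5C, and Loxl1, which cross-links elastin, at 194 and 157 CPM in DMSO and 404 and 360.3 CPM in 5C. The type VI collagen genes Col6a1 and Col6a2 rose by 1.65 and 1.55. Col3a1 was at 1716 and 1526 CPM in DMSO and 1452 and 1804 CPM in 5C (log2 fold change 0.03, SE 0.11). Markers of cells known to make matrix moved beside these genes. Stellate markers summed to 354.4 and 358.5 CPM in DMSO and to 503.2 and 690 CPM in 5C, with 6 of 16 called higher. Their number fell to 3 without 5C replicate 2, and Pdgfrb, a receptor of stellate cells at 81.4 and 79.8 CPM in DMSO and 146 and 229 CPM in 5C, lost its call without that library (log2 fold change 0.86) and without DMSO replicate 1 or 2 (adjusted p 0.104 and 0.105). Other defining stellate markers moved differently. Lrat rose by 1.24 on the log2 scale, and by 0.945 without 5C replicate 2, and Reln was not called (-0.04). Des, which encodes desmin, was at 83.2 and 99.4 CPM in DMSO and 54.4 and 55 CPM in 5C. Its log2 fold change of -0.72 (SE 0.12) lay within the fold limit. Mesothelial markers summed to 1437 and 1191 CPM in DMSO and to 2891 and 2776 CPM in 5C, with 8 of 12 called higher. Upk3b was at 241 and 184 CPM in DMSO and 503 and 444 CPM in 5C, and Msln at 456 and 418 CPM in DMSO and 655 and 679.8 CPM in 5C without a call. The part of these cells in the matrix result was not tested.

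A group of endothelial genes rose from near the floor. Of 22 endothelial markers 13 were called higher and 2 lower, against 7.3% and 4.42% of all genes, with a median log2 fold change of 2.005, and 10 to 12 were called higher when 1 library was left out. Cdh5 (chromosome 8, 104828231 to 104871143), VE-cadherin of endothelial junctions, was at 1.25 and 1.06 CPM in DMSO and 43.3 and 72.2 CPM in 5C (log2 fold change 5.66, SE 0.62, adjusted p 0.00363). Pecam1 was at 0.878 and 0.698 CPM in DMSO and 22.3 and 41.4 CPM in 5C (log2 fold change 5.36). The 5C libraries were far above DMSO in both genes but also differed from each other, and both calls were lost without DMSO replicate 1 (adjusted p 0.0793 for Cdh5 and 0.104 for Pecam1) or replicate 2 (0.0815 and 0.117). Emcn was at 0.447 and 0.319 CPM in DMSO and 7.18 and 13.3 CPM in 5C (log2 fold change 4.76, SE 0.45). The endothelial transcription factors Erg, Sox17 and Sox18 were at or under the floor in DMSO and reached 2.98 and 5.31, 3.49 and 5.46 and 5.99 and 7.64 CPM in 5C, at least 23-fold, 24.8-fold and 37.8-fold higher.

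Angiogenic signals rose beside them, with 13 of 32 called higher and 2 lower (40.6% and 6.25%, against 7.3% and 4.42% of all genes). The members called lower, Bmp2 and Nrp1, had log2 fold changes of -1.11 and -1.004. Without 5C replicate 1 these were -0.82 and -0.84, and without DMSO replicate 2 that of Nrp1 was -0.995. Tie1, an endothelial receptor, was at 0.328 and 0.243 CPM in DMSO and 13.8 and 23.3 CPM in 5C (log2 fold change 6.04, SE 0.42), and the Notch ligand Dll4 at 0.685 and 0.212 CPM in DMSO and 9.5 and 13.7 CPM in 5C, with a call that was lost without DMSO replicate 2 (adjusted p 0.0618). Esm1 (chromosome 13, 113346021 to 113354632), a secreted marker of sprouting tip cells, was at 0.179 and 0.531 CPM in DMSO and 25.6 and 32.8 CPM in 5C (log2 fold change 6.38, SE 1.03, adjusted p 0.0162), a call that was lost without any 1 of the 4 libraries (adjusted p 0.0513 to 0.128). Not every endothelial gene rose. Lyve1 and Stab1, of sinusoidal endothelium and also of macrophages, were called lower, Lyve1 at 309 and 319 CPM in DMSO and 48.8 and 66.4 CPM in 5C, and Clec4g was at or near 0 in every library. The sum over the endothelial list, to which these genes contribute, was 2489 and 1992 CPM in DMSO and 976.5 and 1055 CPM in 5C. Vwf, which is not in the list and was looked up after the values were seen, was also called lower, at 25 and 38.4 CPM in DMSO and 4.78 and 6.86 CPM in 5C.

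**Figure D5:**
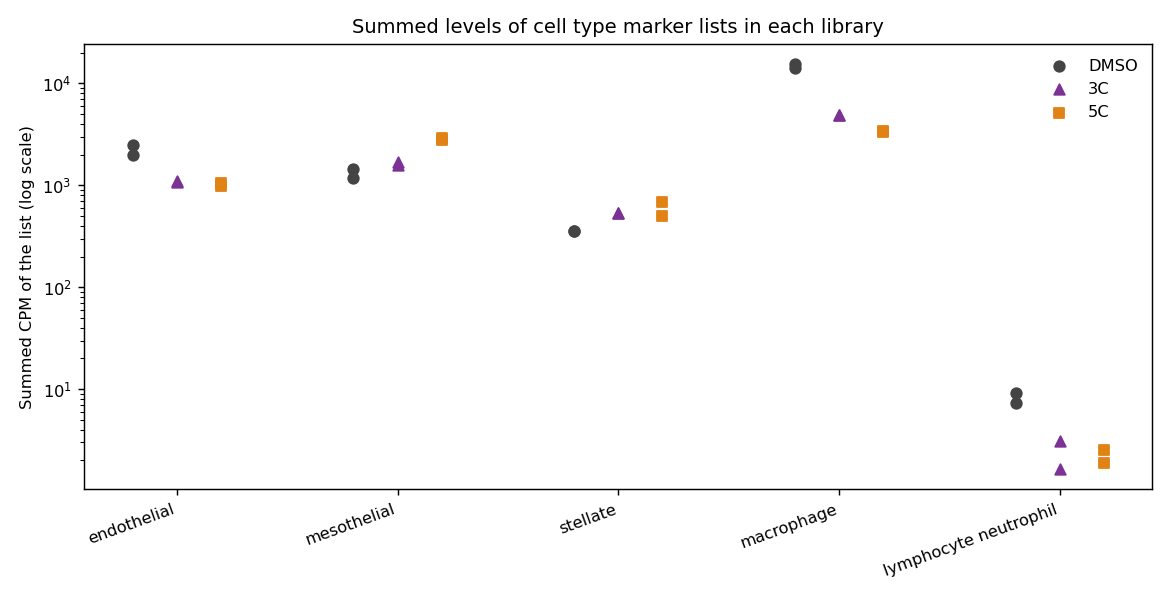
Summed CPM (y axis, log scale) of 5 lists of cell type markers in each library, with circles for DMSO, triangles for 3C and squares for 5C. The macrophage sum is 14310 and 15430 CPM in DMSO and 3400 and 3313 CPM in 5C, and the mesothelial sum is higher in 5C.

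Phagocyte and macrophage genes held the largest shares called lower among the lists. Of 20 macrophage markers 16 were called lower (median -1.996), and of 30 phagocyte receptors and their signalling partners 28 (median -1.89), against 4.42% of all genes. These counts were 15 to 16 and 27 to 29 when 1 library was left out. Marco (chromosome 1, 120402267 to 120432753), a scavenger receptor for bacteria, was at 260.3 and 239.6 CPM in DMSO and 29.6 and 34.3 CPM in 5C (log2 fold change -2.95, SE 0.09, adjusted p 2.15e-07). Clec7a (chromosome 6, 129438554 to 129449742), the receptor for fungal glucans, was at 54.3 and 56.8 CPM in DMSO and 7.66 and 6.46 CPM in 5C, and Fcgr1 (chromosome 3, 96190225 to 96201338), the high-affinity receptor for immunoglobulin G, at 15.3 and 27.1 CPM in DMSO and 2.77 and 2.66 CPM in 5C. Their log2 fold changes were -2.96 (SE 0.17) and -2.95 (SE 0.27), the latter with DMSO libraries that differed. Adgre1, the F4/80 antigen, was at 411 and 431 CPM in DMSO and 83.4 and 82.8 CPM in 5C. Csf1r, the receptor on which macrophages depend, was at 439 and 417 CPM in DMSO and 105 and 104 CPM in 5C. Vsig4 and Clec4f mark resident Kupffer cells: Vsig4 was called lower at -1.75, and Clec4f was at 2.55 and 2.81 CPM in DMSO and 2.04 and 1.81 CPM in 5C without a call. Itga4, the integrin alpha 4 chain of leukocytes, fell from 48.5 and 42.1 to 7.09 and 7.81 CPM.

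Other genes among the largest falls had varied roles. Napsa, an aspartic protease, was at 22.6 and 15.1 CPM in DMSO and 1.3 and 1.53 CPM in 5C (log2 fold change -3.71). Slc9a4 (chromosome 1, 40619131 to 40670186), a sodium and proton exchanger, was at 18 and 20.8 CPM in DMSO and 1.69 and 1.62 CPM in 5C (log2 fold change -3.53, SE 0.24). Atp2a3, a calcium pump, fell from 27.3 and 27.1 to 3.88 and 3.99 CPM and Ms4a8a from 162 and 174 to 23.8 and 24.8 CPM. The replicates of these genes lay close together in 5C, while those of Napsa differed in DMSO. Lack of overlap was part of the rule that named these genes and adds nothing to their calls. Ccdc148 had a log2 fold change of -2.62 (SE 0.11). Ly6a and Ifi209 had log2 fold changes of -4.09 and -3.300, with 14% and 35.5% of their words shared with other genes. Oas3 and Ifi27l2a, interferon-induced genes, had log2 fold changes of -2.81 and -2.72 but differed between the DMSO libraries (14.5 and 35.1 CPM for Oas3), and both calls were lost without 5C replicate 1 (adjusted p 0.102 and 0.108) or replicate 2 (0.139 and 0.103).

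Lysosomal genes gave the largest losses on the CPM scale. Of 29 genes 12 were called lower (median -0.91), against 4.42% of all genes. The list summed to 37580 and 41830 CPM in DMSO and to 15900 and 15970 CPM in 5C. Psap (chromosome 10, 60113431 to 60138380), the precursor of saposins that help break down sphingolipids, was at 8366 and 9239.5 CPM in DMSO and 2631 and 2761 CPM in 5C (log2 fold change -1.69, SE 0.08). Ctsb, a cysteine protease, was at 7220.1 and 8117 CPM in DMSO and 2378 and 2325 CPM in 5C. Ctsd, an aspartic protease with 15.8% of its words shared, was at 8244 and 9417 CPM in DMSO and 3022 and 2803 CPM in 5C. Lysosomes are found in every cell, but several of these genes are rich in macrophages. Ctss, a cathepsin of antigen-presenting cells, had a log2 fold change of -2.37, Lyz2, myeloid lysozyme, of -2.44, Gpnmb of -2.43, the complement gene C1qa of -2.08 and Mpeg1 of -2.03, while Grn, progranulin, had -1.38. Lamp1, a membrane protein of all lysosomes, had -1.08, and came under the fold limit without DMSO replicate 2 (-0.98). The part of the macrophage change in the lysosomal result was not tested.

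Immune signalling genes were less uniform. Of 36 cytokine and chemokine genes 8 were called lower (5 without DMSO replicate 2) and 6 higher. Il1a, the alarm cytokine interleukin 1 alpha, was at 7.46 and 6.93 CPM in DMSO and 0.985 and 0.939 CPM in 5C (log2 fold change -2.88, SE 0.36), and Ccl8, which attracts monocytes, at 23.1 and 31.2 CPM in DMSO and 4.82 and 5.3 CPM in 5C. Ccl2, also an attractant of monocytes, was called higher, at 32 and 37.5 CPM in DMSO and 86.9 and 73 CPM in 5C (log2 fold change 1.22, SE 0.104), as was Cxcl12 (1.25). Of 25 interferon response genes 5 were called lower, a count that was 3 without 5C replicate 1, 1 without 5C replicate 2, 13 without DMSO replicate 1 and 5 without DMSO replicate 2. Oas2 was at 21.2 and 30.5 CPM in DMSO and 5.59 and 5.23 CPM in 5C, so the DMSO libraries differed in this group too. Of 19 antigen presentation genes 4 were called lower, and 2 without DMSO replicate 2. In the families, 9 of 24 C-type lectins were called lower and 1 higher, 6 of 11 Toll-like receptors lower and 1 higher, 7 of 9 Fc and Siglec receptors lower and 0 higher, and 9 of 27 chemokines lower and 4 higher, against 4.42% and 7.3% of all genes.

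Genes that the compounds act on were looked up as a list of 21. The kinase genes were not called: Prkd1, Prkd2 and Prkd3, which encode protein kinase D, had log2 fold changes of 0.47, 0.18 and 0.07, Rock1 and Rock2 of -0.13 and -0.34, and Acly, ATP citrate lyase, of -0.11 (SE 0.07, adjusted p 0.311). Prkaa1 and Prkaa2, the catalytic subunits of AMPK, had -0.34 and 0.09. Genes of adenylate cyclase, which forskolin activates, differed among themselves. Adcy1 was called higher, at 13.5 and 10.2 CPM in DMSO and 45.2 and 56 CPM in 5C (log2 fold change 2.12, SE 0.18, adjusted p 5.96e-05). Adcy7, which leukocytes express, was called lower, at 40.8 and 37.9 CPM in DMSO and 17.3 and 17.2 CPM in 5C (log2 fold change -1.17, SE 0.11). Adcy6 was at 73.7 and 60.8 CPM in DMSO and 89.8 and 85.9 CPM in 5C without a call. Adcy2 and Adcy4 were called higher and Adcy5 lower, but each lost its call when 1 library was left out (Adcy2 without 5C replicate 1 or 2, at 0.0514 and 0.0718, Adcy4 without 5C replicate 1 or 2 or DMSO replicate 2, at 0.0778, 0.225 and 0.172, and Adcy5 without 5C replicate 1 or DMSO replicate 1 or 2, at 0.135, 0.0669 and 0.0739, all adjusted p). Of 19 cAMP response genes 1 was called higher (5.26%, against 7.3% of all genes) and 2 lower (10.5%, against 4.42%). Avpr1a, the hepatic vasopressin receptor, was at 2.26 and 1.67 CPM in DMSO and 29.3 and 27.4 CPM in 5C, whereas Dusp1, a phosphatase of MAP kinases, and Areg, a growth factor, had log2 fold changes of -1.05 and -1.06. Dusp1 came under the limit without DMSO replicate 1 (-0.996), and Areg without 5C replicate 2 (-0.78) or DMSO replicate 2 (-0.86). Among 23 targets of actin, SRF and YAP, whose activity depends on ROCK, 1 was called higher and 1 lower. These are 4.35% each, against 7.3% and 4.42% of all genes, and the median was -0.04. The member called lower, Actg2, had a log2 fold change of -1.25, and of -0.99 without 5C replicate 2.

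Genes of the NRF2 antioxidant response moved both ways. Of 22 target genes 3 were called lower (1 without either DMSO library) and 1 higher, against 4.42% and 7.3% of all genes. The member called higher was Gstm3, a glutathione transferase, at 3.83 and 2.09 CPM in DMSO and 83.6 and 46.6 CPM in 5C (log2 fold change 4.47, SE 0.49), with 26.9% of its words shared with other genes. Slc7a11, the cystine carrier, was at 296 and 281 CPM in DMSO and 91.3 and 63.6 CPM in 5C (log2 fold change -1.88, SE 0.17, adjusted p 0.000207), and Gclc, which makes the glutathione precursor, at 470.3 and 492 CPM in DMSO and 264 and 164 CPM in 5C (log2 fold change -1.15). The Gclc call was lost without 5C replicate 2 (log2 fold change -0.86) and without DMSO replicate 1 or 2 (adjusted p 0.120 and 0.138). Hmox1 (-0.48) and Nqo1 (-0.48) were not called. Gsta1 shares 91.2% of its words with other genes and lost its call without either DMSO library (adjusted p 0.106 and 0.139).

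Housekeeping systems had few or no calls. By edgeR, 0 of 80 ribosomal protein genes, 0 of 38 proteasome genes, 0 of 44 histone genes, 0 of 13 mitochondrial genome genes and 0 of 25 nuclear genes of the respiratory chain were called in either direction. The cell cycle list had 0 calls of 28 and a median of -0.13. Mki67, a marker of cycling cells, was at 14.6 and 11.6 CPM in DMSO and 9.64 and 7.29 CPM in 5C, and Ccnd1, cyclin D1, at 211 and 276 CPM in DMSO and 152 and 126 CPM in 5C (log2 fold change -0.79, adjusted p 0.00374, under the fold limit). Of 22 genes of the unfolded protein response 0 were called, and of 23 p53 and senescence genes 1 was called higher (4.35%, against 7.3% of all genes). An unadjusted p under 0.05 was reached by 7287 of the 19135 tested genes. It was reached by 47 of the ribosomal, 9 of the proteasome, 7 of the histone, 8 of the mitochondrial genome, 12 of the respiratory chain, 7 of the cell cycle and 11 of the unfolded protein response genes. In these 7 groups DESeq2 called 2 histone genes and no other gene, and limma on the FPKM called 1 ribosomal and 1 histone gene. In the p53 and senescence list, DESeq2 and limma called 1 gene each, as edgeR did. In that list 18 of 23 genes had an unadjusted p under 0.05. Log2 fold changes were above 0 in 76 of 80 ribosomal, 13 of 13 mitochondrial genome and 24 of 25 respiratory chain genes. The number was 28 of 38 for proteasome, 12 of 44 for histone, 9 of 28 for cell cycle and 12 of 22 for unfolded protein response genes. It was 7 of 23 for p53 and senescence genes and 9626 of 19135 over all tested genes.

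The test of 5C against 3C in the same fit shows where the full cocktail went beyond the smaller one. It called 576 genes (3.01%), 413 higher and 163 lower in 5C. Of the 1397 genes called higher against DMSO, 268 were also called higher than 3C and 9 lower, and of the 845 called lower, 92 were also lower than 3C and 3 higher. These counts share the 5C libraries and are no independent evidence. The acute phase list had 10 of 22 members higher than 3C (median difference 1.77) and the matrix list 8 of 30 (0.63). Of the endothelial markers 11 of 22 were higher than 3C (1.103), and of the mesothelial markers 6 of 12 (1.02). How these list counts change when 1 library is left out was not tested. For macrophage markers the median difference was -0.49, with 1 member called lower. Orm1, an acute phase plasma protein that shares 14.9% of its words with other genes, was at 5.57 and 7.92 CPM in 3C and 134 and 120.4 CPM in 5C (log2 difference 4.29, adjusted p 0.000135), Uroc1 at 4.14 and 4.91 CPM in 3C, and Apoc3, an inhibitor of lipoprotein lipase, at 18.2 and 19.1 CPM in 3C and 84.7 and 100.1 CPM in 5C. Cps1 was at 165 and 157 CPM in 3C, a log2 difference of 0.43 (SE 0.32), and Gjb1 at 55.3 and 56.5 CPM, a difference of -0.004 (SE 0.099), neither of them called. Cdh1 and Gclc were lower in 5C than in 3C, at log2 differences of -1.15 (adjusted p 0.00027) and -1.59 (adjusted p 0.00922). Col1a2, a chain of type I collagen, was higher in 5C than in 3C by 1.02 (adjusted p 0.000353).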

How the data were processed

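RNA of damaged hepatocytes was read as 150-base pairs on a NovaSeq6000 and mapped to GRCm39, 2 libraries each for DMSO, 3C and 5C. The authors deposited 1 table of whole-number values per gene, treated here as estimated counts, and 1 table of FPKM (fragments per kilobase of gene, scaled to library size). The submitters' processing notes name featureCounts, Subread and DESeq2. The aligner and the use of strand are not given in the sources used here, so genes that overlap on opposite strands cannot be told apart. The estimated counts show an excess at 4 and 8, so 1 unit need not be 1 fragment, and the floor was set at 12 units, which would be 3 fragments at 4 units each.

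All 6 libraries entered 1 edgeR 4.0.16 fit (R 4.3.3, limma 3.58.1) with TMM scaling, its filter on low counts and the robust quasi-likelihood test with 3 residual degrees of freedom. Adjusted p-values are Benjamini-Hochberg values over all tested genes, two-sided, and genes were called at adjusted p under 0.05 and a log2 fold change above 1 in size. Standard errors are on the log2 scale. They include the spread between libraries, whereas the floor covers counting error only. Libraries held 65916573 to 69245895 estimated counts. Alternatives used DESeq2 1.42.0 and limma on log2(FPKM + 1) and log2(FPKM + 0.1). Replicate numbers were not treated as pairs.

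Genes were named as the 15 largest and 15 smallest log2 fold changes among called genes of at least 10 CPM whose groups do not overlap, the 10 largest gains and losses of CPM, and, in each list, the extreme called members and the most abundant one. The genes that the study picked were left out of these rankings. Other genes were named for their known role after their values were seen. Some genes are not reported here. The members and lists were chosen with earlier results of these data known. Shared sequence is the percent of a gene's 50-base words that occur in other genes, and from 10 percent a gene was called uncertain. Promoter sequences are from RefSeq. Tables and figures were made with Python 3.11.15, pandas 2.3.3 and matplotlib 3.10.9.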

Additional observations from a re-analysis of the deposited data

How the results depend on the processing

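For 5C against DMSO, 2242 genes were called. Other scaling, filters, DESeq2, the 4 libraries alone, counts divided by 4 and limma on log2(FPKM + 0.1) gave 2008 to 2416. The count was 5485 with no limit on the fold change, 1160 when the test itself asked for a log2 change beyond 1 and 1233 with limma on log2(FPKM + 1). Fits that left out 1 library gave 1923 to 2191. For 5C against 3C, 576 genes were called, 2423 with no limit on the fold change, 38 under that stricter test and 260 with limma on log2(FPKM + 1), and leaving out 1 library gave 381 (without 5C replicate 2) to 642 (without DMSO replicate 1). No called gene shared with an alternative changed direction. Dropping the fold limit and the stricter test change the threshold itself, and the larger pseudocount lowers the fold of low genes by construction.

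With a replicate block 2125 and 536 genes were called in these comparisons, 2082 of the former among the 2242. The deviations of same-numbered libraries had correlations of -0.0306 (DMSO and 3C), 0.000683 (DMSO and 5C) and 0.0161 (3C and 5C). Whether equal numbers mark a shared animal, day or plate was not tested. Of genes called against DMSO 62.3% were higher, and 54.4% with no limit on the fold change. For 5C against 3C these shares were 71.7% and 57.9%, and 86.8% under the stricter test.

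With 2 libraries a group, the spread rests on 3 residual degrees of freedom, and genes near the floor carry large errors. The labels name no batch, so a batch shared with a group cannot be told apart from the treatment. Dividing the counts by 4 and leaving out 3C libraries were chosen after seeing the data.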

Other observations

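Families of cell contact genes also differed between 5C and DMSO. Of 16 claudins, the strand proteins of tight junctions, 8 were called higher and 0 lower, with a median log2 fold change of 1.69, beside 7.3% of all tested genes called higher. Cldn5, which is known from endothelial tight junctions, was at 0.566 and 0.137 CPM in DMSO and 8.7 and 14.6 CPM in 5C (log2 fold change 5.07, SE 0.603). The claudin sum was 260.3 and 293.6 CPM in DMSO and 330.7 and 318.9 CPM in 5C, with the 3C libraries highest at 546.1 and 562.9 CPM. Of 69 cadherins and protocadherins 20 were called higher and 4 lower. Cdh11, a cadherin of mesenchymal cells, was at 99.7 and 70.4 CPM in DMSO and 231 and 212 CPM in 5C, and Cdh17, a cadherin of gut epithelium, went the other way, at 20.7 and 23.7 CPM in DMSO and 9.56 and 7.99 CPM in 5C. Of 28 integrins tested 5 were called higher and 7 lower (17.9% and 25%, against 7.3% and 4.42% of all genes). Itgb7, a chain of leukocyte integrins, was at 2.2 and 1.11 CPM in DMSO and 0.0579 and 0.173 CPM in 5C, whereas Itgb3, which platelets and endothelial cells express, was at 6.88 and 4.9 CPM in DMSO and 17.5 and 22.3 CPM in 5C.

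Of 18 matrix metalloproteinases 4 were called higher and 5 lower, against 7.3% and 4.42% of all genes. Mmp7 (matrilysin) was at 1.41 and 2.25 CPM in DMSO and 69.2 and 62 CPM in 5C (log2 fold change 5.18, SE 0.24), and Mmp2, a gelatinase, at 66.2 and 53 CPM in DMSO and 139 and 174 CPM in 5C. Mmp12, the macrophage elastase, was at 6.39 and 7.75 CPM in DMSO and 1.23 and 1.04 CPM in 5C (log2 fold change -2.62, SE 0.38). Among growth factors, 5 of 16 FGF ligands and receptors were called higher, among them Fgf2 at 56.1 and 47.3 CPM in DMSO and 106 and 118 CPM in 5C and the receptor Fgfr2 with a log2 fold change of 1.57. Of 20 BMP and GDF ligands 3 were called higher and 5 lower. Bmp4 was at 21.6 and 16.1 CPM in DMSO and 51.7 and 52.9 CPM in 5C, whereas Bmp10 was at 4.35 and 5.14 CPM in DMSO and 0.623 and 0.375 CPM in 5C. Igfbp2, a carrier of insulin-like growth factors in plasma, was at 0.462 and 0.228 CPM in DMSO and 4.21 and 4.04 CPM in 5C (log2 fold change 3.595, SE 0.38). Cish, a target of growth hormone signalling, had a log2 fold change of 1.81. Of 57 potassium channel genes 15 were called higher and 4 lower. The genes named in this section were chosen after their values were seen.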
